A study of Mus musculus with 20 samples.

Results

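The data described here come from the lungs of 10 female Sprague Dawley rats, an outbred laboratory stock: 5 given bleomycin to cause acute lung injury and 5 sham animals. They are 10 of the 20 lung libraries of the series, chosen by the treatment and the sex in the sample labels, and each library is 1 animal numbered 1 to 5 within its group. All 10 animals share the stock, the tissue and a selection for matched body weight, and the bleomycin animals differ from the sham animals by treatment alone as far as the labels tell. The labels do not give the dose of bleomycin, its route, the age of the animals, the time to collection, or what the sham treatment consisted of, so the stage of injury is not known here. The organism field names mouse, while the stock, the design text and the gene identifiers (ENSRNOG) are those of rat, and the animals are treated as rats.

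Bleomycin is a glycopeptide drug that binds iron and oxygen and cuts DNA strands, and lung injury is the toxicity that limits its use against tumours. In rodents it is the standard agent for lung injury that passes into scarring: epithelial cells of the alveoli die or stop working, leukocytes enter, surviving cells divide, and fibroblasts turn into contractile, matrix-making myofibroblasts under transforming growth factor beta (TGF-beta). Blmh, the hydrolase that inactivates the drug, is low in lung relative to other organs.

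Poly-A RNA was read from whole lung, and the deposited table gives a count and an FPKM (fragments per kilobase of transcript per M fragments, a level that can be compared between genes) for each gene and animal. Each library held between 71.7 and 87.5 M counts (M for mega) in bleomycin females and between 74.9 and 85.0 M in sham females. The defining lung genes were abundant in every library: the surfactant gene Sftpc averaged 5838 ± 1181 FPKM in bleomycin females and 8513 ± 1006 FPKM in sham females (SD, n = 5 each), and the endothelial cadherin gene Cdh5 131 ± 17.2 FPKM in bleomycin females and 123 ± 7.75 FPKM in sham females. Of the male-specific genes, Kdm5d had 30 counts in bleomycin animal 1, 20 in bleomycin animal 5 and 0 in the other 8 libraries, and Eif2s3y had 16 in bleomycin animal 1 alone. Along the first principal component, with 46.2% of the variance, the groups lay apart, and the second set bleomycin animal 1 (40.3) against bleomycin animal 5 (−50.7). Bleomycin libraries were the more varied, with a median SD of log2 CPM (counts scaled to the library total after adjustment by its TMM factor) of 0.209 per gene, against 0.158 in sham libraries. Mitochondrial transcripts took 4.94 ± 0.443% of counts in bleomycin females and 6.58 ± 0.706% in sham females, a difference with an exact permutation p of 0.016 (two-sided, smallest possible 0.0079).

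Genes with an FPKM of at least 0.5 in at least 5 of the 10 libraries were tested, 15077 of 23799. All fold changes are bleomycin over sham, and "called" means a log2 change of 1 or more up or down with an adjusted p under 0.05. Of all tested genes 814 (5.40%) were called higher and 280 (1.86%) lower, 1094 (7.26%) in all. At an adjusted p under 0.05 with no fold threshold, 2847 (18.9%) rose and 2444 (16.2%) fell, and 4197 of these 5291 stayed below a log2 fold change of 1. In 15.2% of tested genes every bleomycin library lay above every sham library, and in 9.15% every one lay below. The rises were also the larger changes: 282 called genes reached a log2 fold change of 2 and 103 reached 3, while 23 fell by 2 or more and 4 by 3 or more. A gene could pass the FPKM minimum through 1 group alone, and for such a gene the lack of overlap follows from the filter. Of the called rises 138 had a mean under 0.5 FPKM in sham females and at least 1 FPKM in bleomycin females. The reverse held for 18 called falls. Large fold changes of such genes rest on low values in the other group. With the mitochondrial percent of each library as a covariate, which differs between the groups, 478 genes were called higher and 103 lower, and 110 of the 215 genes named in the text that rose or fell still passed an adjusted p of 0.05. Where a list is said to have none in a direction, the count is by edgeR; at an unadjusted p under 0.05, and likewise by DESeq2, it was also 0 except for 1 lower gene in the contractile list, 1 lower in the transitional epithelium list, 1 higher in the xenobiotic list, 2 higher in the MHC class II list, 2 lower in the neuropeptide and hormone list and, at the unadjusted p alone, 1 higher in the thymus and lymph node list. In the account that follows, values are given for animals 1 to 5 in that order, log2 fold changes carry their standard error, FPKM means carry their SD (n = 5 in each group), and "rose" and "fell" stand for an adjusted p under 0.05. Counts and adjusted p-values given as "without" an animal come from the same fit with that 1 library left out. Counts of list members that rose or fell are to be read beside the shares over all tested genes, 18.9% and 16.2%. Likewise, counts of members called higher or lower are to be read beside 5.40% and 1.86%. Counts of members without overlap of the groups are to be read beside 15.2% above and 9.15% below. The lists and their members were chosen with earlier results of these data known, so their counts describe the lists and are no independent test. As whole lungs were measured, fewer cells of a type and less RNA per cell cannot be told apart.

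**Figure D1:**
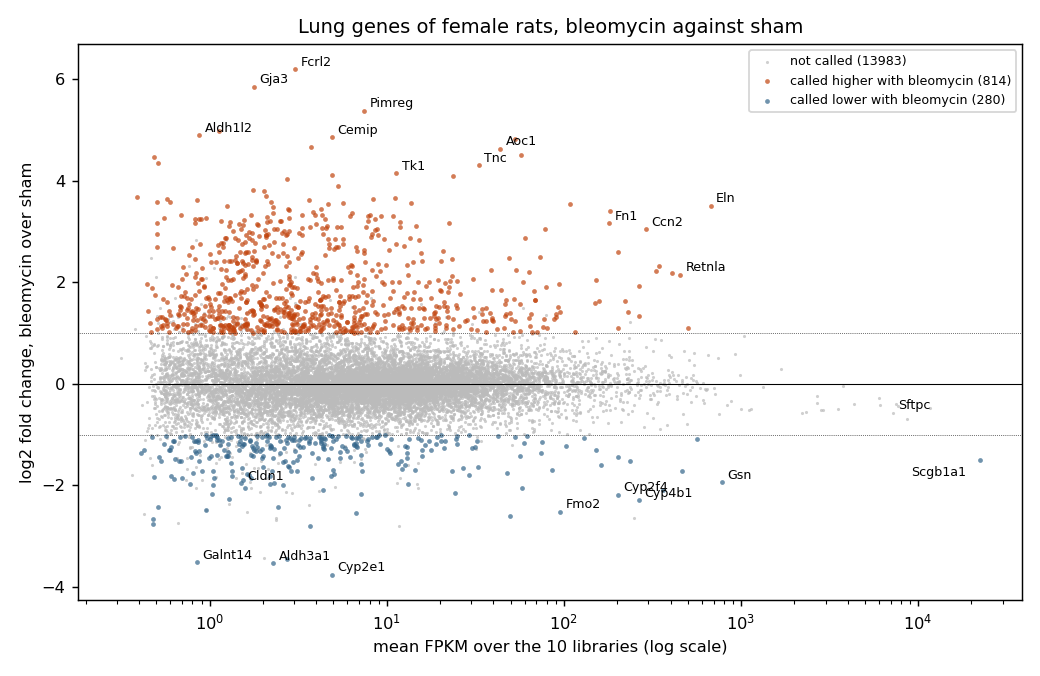
Each point is 1 of 15077 tested genes. The horizontal axis is the mean FPKM over the 10 libraries (log scale) and the vertical axis the log2 fold change, bleomycin over sham. Coloured points are the 814 genes called higher and the 280 called lower, and the dotted lines mark log2 fold changes of 1 and −1. The upper arm reaches past 6 (Fcrl2), the lower arm ends at −3.76 (Cyp2e1).

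Genes of the fibrous extracellular matrix rose together in bleomycin females. Elastin (Eln), the rubber-like protein that lets alveoli recoil, had the largest gain in mean FPKM among genes that rose. It stood at 1505, 1171, 1052, 1535 and 946 FPKM in the bleomycin animals, against 112, 99.1, 128, 99.0 and 104 FPKM in the sham animals. The lowest bleomycin lung was far above the highest sham lung, and the log2 fold change was 3.50 ± 0.168 (adjusted p = 8.4e-08; ENSRNOG00000001469, chromosome 12, 21968544 to 22011928 as the table gives it). Fibronectin (Fn1), a scaffold on which collagen is laid down, had the smallest p of all tested genes, at 368, 320, 344, 305 and 289 FPKM in bleomycin females and 40.9, 29.6, 41.0, 32.8 and 34.5 FPKM in sham females. The groups lay wide apart, with a log2 fold change of 3.16 ± 0.119 (adjusted p = 6.9e-08; ENSRNOG00000014288, chromosome 9, 73196044 to 73264678).

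The collagens that build fibrils rose in 6 of 8 tested members of a list of 10, and none fell. All 6 were called higher and all 6 were without overlap of the groups, against 5.40% and 15.2% of all tested genes. The median log2 fold change was 2.23, against −0.00 over all tested genes. Col1a1, the main chain of type I collagen, stood at 409, 329, 386, 306 and 240 FPKM in bleomycin females, against 31.7, 29.6, 40.8, 26.7 and 26.1 FPKM in sham females. It was highest in bleomycin animals 1 and 3 and lowest in animal 5, and no library of one group reached the other. Col5a1 and Col5a2, chains of the type V collagen that starts new fibrils, rose by 2.41 ± 0.161 and 1.65 ± 0.100. The cartilage chain Col11a2 and Col27a1 had log2 fold changes of 0.18 and −0.06 and passed no threshold. Of the other interstitial collagens 10 of 13 rose and were called (median 1.52), among them Col6a3 (1.55 ± 0.101), Col6a2 (1.67 ± 0.128), Col18a1 (1.36 ± 0.0759) and Col6a1 (1.64 ± 0.131).

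Enzymes that fold, trim and cross-link collagen rose in 19 of 21 tested members and fell in none (median 1.10, 11 called higher). The lysyl oxidases, which cross-link collagen and elastin, were prominent. Loxl1 was at 96.5, 102, 107, 113 and 110 FPKM in bleomycin lungs and at 33.0, 28.2, 31.1, 29.2 and 25.1 FPKM in sham lungs, with little spread in either group (1.82 ± 0.0696, adjusted p = 6.9e-08). Loxl2 rose by 2.57 ± 0.127 and Lox by 2.47 ± 0.179. Fkbp10, a chaperone of collagen folding, rose by 1.82 ± 0.0826. P4ha1 and Plod3, a prolyl and a lysyl hydroxylase, passed no threshold, at log2 fold changes of −0.11 and 0.30.

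Elastic-fibre and matricellular genes rose in 24 of 29 tested members, 17 of them called higher, with 1 fall (median 1.35). Tenascin-C (Tnc), a matricellular protein of developing and wounded tissue, was low in sham lungs: 62.5, 72.3, 73.1, 51.0 and 56.8 FPKM in bleomycin females, against 4.20, 2.30, 4.11, 3.41 and 1.81 FPKM in sham females (4.30 ± 0.237, adjusted p = 2.8e-07; ENSRNOG00000058645, chromosome 5, 77375851 to 77460624). Thrombospondin 2 (Thbs2) was more uneven, with bleomycin animals 1 and 3 at 14.7 FPKM each and animals 2, 4 and 5 at 7.12, 4.90 and 4.74 FPKM, against 0.573, 0.569, 0.535, 0.621 and 0.338 FPKM in sham females. All 5 bleomycin lungs were still above the sham lungs (4.11 ± 0.395). Ltbp2, a microfibril-associated protein, rose by 2.87 ± 0.140, and Efemp2, which brings lysyl oxidase to elastin, by 1.51 ± 0.0691. The list's one fall was Sparcl1 (−0.42 ± 0.117), which is related to Sparc. Spp1 (osteopontin) and Ccn1 had log2 fold changes of 1.35 and 1.50 but adjusted p-values of 0.403 and 0.06.

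Basement membrane genes rose less: 15 of 19 members rose, 5 were called, none fell, and the median was 0.62. Nidogen 1 (Nid1), which links laminin to type IV collagen, varied little within a group, at 33.5, 35.9, 32.8, 35.9 and 34.9 FPKM in bleomycin females and 12.1, 9.40, 9.89, 8.93 and 8.52 FPKM in sham females (1.80 ± 0.0777). Col4a1 and Col4a2, the chains found in nearly every basement membrane, rose by 1.62 ± 0.0992 and 1.42 ± 0.100. The chains typical of the alveolar basement membrane moved less, with Col4a3 at 0.48 ± 0.163 and Col4a4 at 0.30 (adjusted p = 0.191).

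Proteoglycan and hyaluronan genes split. Of 20 tested members 9 rose and 2 fell, and the median was 0.34. Cemip, which binds and breaks down hyaluronan, had one of the largest rises of all genes, at 9.46 ± 1.34 FPKM in bleomycin females and 0.320 ± 0.0956 FPKM in sham females (4.85 ± 0.201, adjusted p = 7.5e-08). Bgn (biglycan) reached 667 ± 55.4 FPKM in bleomycin females and 144 ± 19.1 FPKM in sham females, and versican (Vcan) rose by 2.96 ± 0.198. Omd and the syndecan gene Sdc4 fell, with log2 fold changes of −1.61 ± 0.226 and −0.38 ± 0.0765. Decorin (Dcn) and the hyaluronan receptor gene Cd44 passed no threshold, at −0.28 and −0.04.

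Proteases that cut matrix, and their inhibitors, rose in 16 of 25 tested members and fell in 3 (median 1.16, 13 called higher and 1 lower). Adamts12, Mmp23, Mmp2 and Adam12 had the smallest p-values, with log2 fold changes of 1.80 ± 0.132, 2.06 ± 0.162, 1.37 ± 0.118 and 2.51 ± 0.228. Timp1, an inhibitor of these proteases, rose by 2.00 ± 0.235, whereas Timp4 fell by 1.12 on the log2 scale. The other falls were Mmp15 and Adam8.

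The contractile genes of smooth muscle and myofibroblasts rose in 13 of 16 members, 8 of them called, and none fell (median 0.98). Acta2, alpha smooth muscle actin, was at 214, 272, 248, 183 and 307 FPKM in bleomycin lungs and at 56.7, 51.7, 52.9, 67.7 and 61.8 FPKM in sham lungs. Actg2, the gamma actin best known from visceral muscle, rose further (3.04 ± 0.234), with 101, 163, 135, 88.7 and 211 FPKM in bleomycin females and 16.0, 14.0, 14.9, 22.7 and 15.2 FPKM in sham females. For both actins bleomycin animal 5 was the highest and animal 4 the lowest, and the groups did not overlap. Smtn and Des rose by 1.49 ± 0.102 and 1.84 ± 0.179. The lineage markers of fibroblasts and pericytes moved little as a list, with 6 of 19 members higher, 2 lower and a median of 0.12 (lower in 1 without any 1 of bleomycin animals 2 and 3 and sham animals 1, 2, 4 and 5). Pdgfra, found in alveolar fibroblasts, had a log2 fold change of 0.10 and passed no threshold. Ces1d, a carboxylesterase, fell by 1.69 on the log2 scale, while Gli1, the hedgehog effector, rose by 1.78 ± 0.272.

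Signalling genes around TGF-beta moved in part. Of 24 tested ligands, receptors and targets 12 rose and 4 fell (median 0.33; the falls were 2 without any 1 of bleomycin animals 3 and 4 and sham animal 2). Among ligands, Tgfb3 was at 21.1, 25.0, 23.6, 20.3 and 27.4 FPKM in bleomycin females and 7.34, 5.81, 9.15, 7.38 and 6.66 FPKM in sham females (1.66 ± 0.116), Tgfb2 rose by 0.76 ± 0.140 and Tgfb1 by 0.38 ± 0.104. The follistatin-like genes Fstl1 and Fstl3 rose by 1.38 ± 0.0657 and 1.77 ± 0.156. The receptor gene Tgfbr1 and the signal carriers Smad2, Smad3 and Smad4 had log2 fold changes between −0.15 and −0.07 and passed no threshold. In the list of bone morphogenetic proteins (BMPs), a branch of the same family, 3 of 19 members rose and 6 fell (median −0.25). Gremlin 1 (Grem1), a secreted BMP antagonist, was nearly absent from sham lungs, at 0.926 ± 0.260 FPKM in bleomycin females and 0.0395 ± 0.0221 FPKM in sham females (4.46 ± 0.388). Id4, a BMP target, fell without overlap of the groups (−0.68 ± 0.0922), and Bmp15 and Bmp2 had log2 fold changes of −1.63 ± 0.248 and 1.15 ± 0.208.

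Other growth factor lists were mixed. In the Wnt list 8 of 26 rose and 3 fell, with Dkk3 (1.16 ± 0.0796) and Wnt5a (0.93 ± 0.0889) among those with the smallest p. In the list of FGF, EGF, PDGF, IGF and HGF genes 9 of 28 rose and 5 fell (3 without any 1 of bleomycin animal 3 and sham animal 4). Over all tested genes 18.9% rose and 16.2% fell. Igfbp4, a binding protein that sequesters insulin-like growth factors, had 121, 202, 198, 120 and 104 FPKM in bleomycin females and 39.0, 44.5, 40.5, 33.4 and 31.3 FPKM in sham females (1.96 ± 0.197), and Igf1 itself rose by 0.88 ± 0.116. The growth factor receptor genes Met and Erbb2 fell by 0.72 and 0.54 on the log2 scale.

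**Figure D2:**
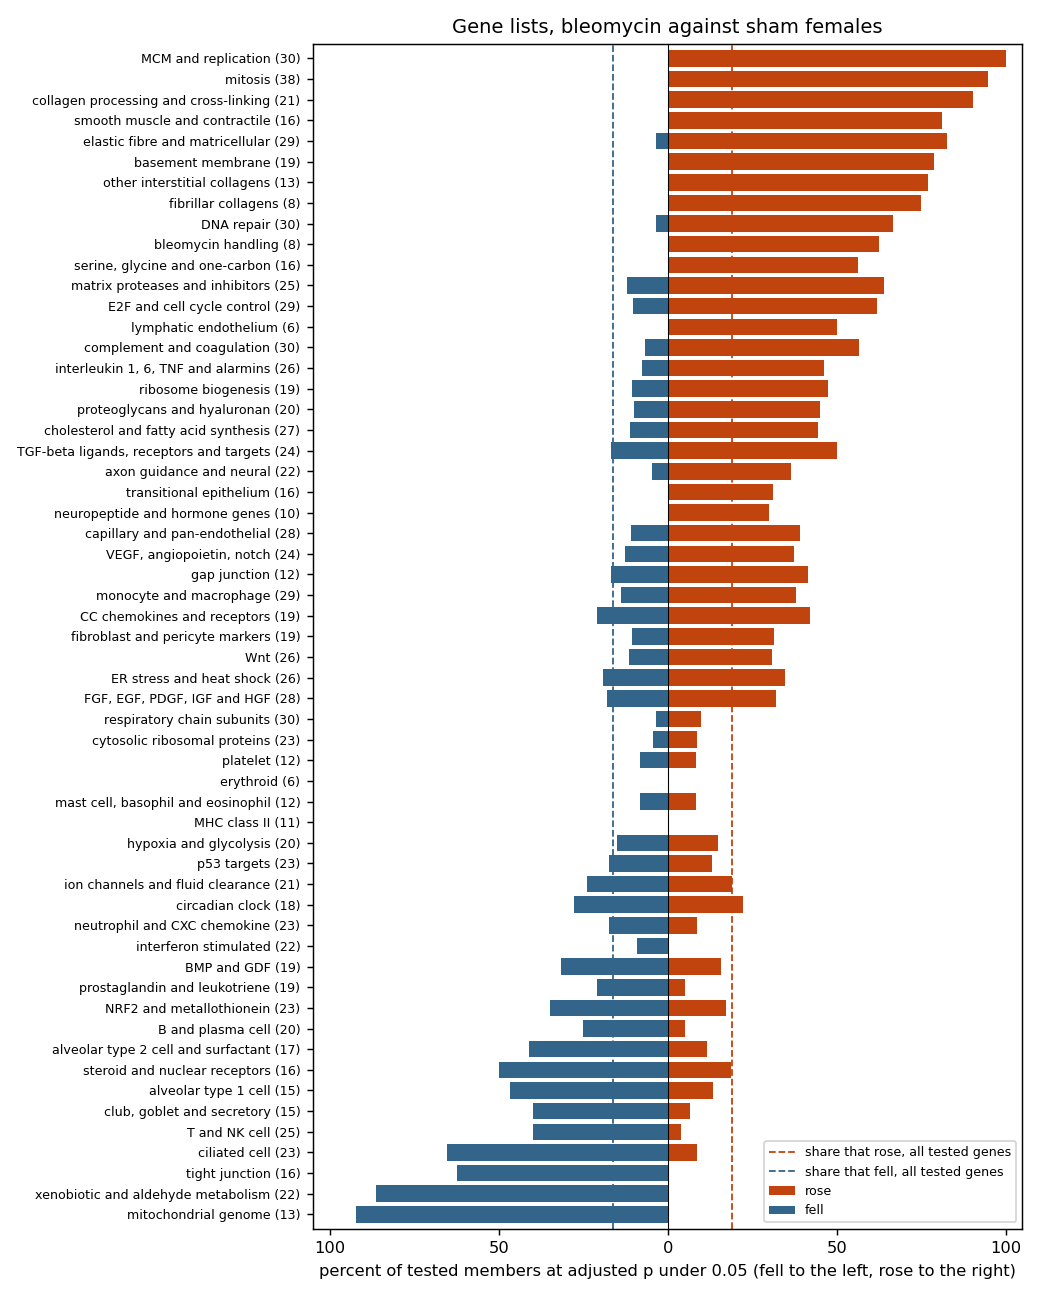
Bars to the right give the percent of each list's tested members (number in parentheses) that rose, bars to the left the percent that fell, at an adjusted p under 0.05. Dashed lines mark the same shares over all tested genes, 18.9% and 16.2%. Replication, mitosis and matrix lists lie at the top, and the mitochondrial genome, xenobiotic metabolism and tight junction lists at the bottom.

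Genes of cell division rose almost without exception. All 30 tested members of the DNA replication list rose, 27 of them by a log2 fold change of 1 or more (median 1.72). In all 30 the groups did not overlap. Over all tested genes 5.40% were called higher and 15.2% lay wholly above the sham libraries. Thymidine kinase (Tk1), which feeds thymidine into DNA synthesis, was at 20.9, 23.3, 22.8, 16.2 and 24.1 FPKM in bleomycin females and at 1.37, 0.908, 1.56, 1.36 and 0.754 FPKM in sham females (4.14 ± 0.197, adjusted p = 9.0e-08; ENSRNOG00000047314, chromosome 10, 103031521 to 103046920). The helicase subunits Mcm6 and Mcm2 rose by 2.01 ± 0.0962 and 1.79 ± 0.0892, and the sliding clamp Pcna by 1.30 ± 0.0684.

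Of 38 tested mitosis genes 36 rose, 35 of them called, and none fell (median 3.08). Cdc20, which switches on the complex that ends metaphase, stood at 24.9, 28.2, 30.0, 20.9 and 29.2 FPKM in bleomycin females, against 4.42, 3.32, 3.76, 3.92 and 3.12 FPKM in sham females (2.82 ± 0.115, adjusted p = 7.5e-08; ENSRNOG00000028415, chromosome 5, 131966215 to 131970512). Bleomycin animal 4 was the lowest of its group here, as it was for Tk1, and was still well above the highest sham animal. Ube2c, Cdk1 and Plk1 rose by 3.19 ± 0.139, 3.16 ± 0.146 and 2.95 ± 0.137. The exceptions were Aurkb (0.83, adjusted p = 0.361) and Kif4a (−0.05). Division genes took 7 of the 12 smallest p-values of all genes: besides Cdc20 and Ube2c these were Racgap1, a cytokinesis regulator (2.76 ± 0.108), the spindle genes Spag5 (3.09 ± 0.133), Hmmr (2.67 ± 0.116) and Knstrn (3.31 ± 0.148), and the phosphatase gene Cdkn3 (3.30 ± 0.147). Pimreg, a mitotic regulator, and Kif22, a chromosome-moving kinesin, were among the 12 largest called rises. Pimreg had 14.6 ± 5.35 FPKM in bleomycin females and 0.343 ± 0.217 FPKM in sham females.

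Most genes that control entry into the cycle rose, and a difference between their roles was not tested. Of 29 members 18 rose and 3 fell (median 0.47). Cyclin E1 (Ccne1), the partner of Cdk2 at the start of S phase, rose by 3.03 ± 0.241, and the transcription factors Mybl2 and E2f8 by 2.80 ± 0.162 and 3.24 ± 0.287. The 3 falls were Rbl2, a pocket protein of resting cells (−0.50 ± 0.0642), and the inhibitors Cdkn1b and Cdkn1c. Cdkn1b (p27) was at 29.2, 27.5, 31.1, 31.1 and 35.1 FPKM in bleomycin females and 65.1, 46.0, 50.7, 43.3 and 48.9 FPKM in sham females, with no overlap (−0.75 ± 0.0935), and Cdkn1c (p57) fell by 1.01 on the log2 scale. Cdkn1a (p21), a p53 target, passed no threshold (0.43, adjusted p = 0.176).

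Cells mend broken DNA by homologous recombination, which copies the sister strand after replication, or by end joining, which needs no copy. Of 30 tested repair genes 20 rose, 17 of them called, and 1 fell (median 1.26). Fanci, of the crosslink repair pathway, had 4.90, 4.94, 4.73, 3.90 and 5.35 FPKM in bleomycin females and 1.12, 0.934, 0.891, 0.876 and 0.606 FPKM in sham females, with the groups apart (2.40 ± 0.139; ENSRNOG00000016689, chromosome 1, 133327297 to 133383640). Its partner Fancd2 and the recombination gene Brca1 rose by 2.50 ± 0.161 and 2.23 ± 0.149. Of the end joining genes in the list, Xrcc5 (Ku80) fell to 29.0, 24.6, 22.6, 27.1 and 19.5 FPKM in bleomycin females, against 42.7, 50.9, 40.3, 41.7 and 39.6 FPKM in sham females (−0.83 ± 0.117), and Xrcc6, Prkdc and Lig4 passed no threshold, at 0.22, 0.27 and −0.10. The kinase genes Atm and Atr were at 0.15 and 0.26, also past no threshold. A difference between the branches was not tested.

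Of p53 targets 3 of 23 rose and 4 fell, close to or below the shares over all tested genes (median 0.17; the rises were 6 without bleomycin animal 5). Tnfrsf10b, a death receptor, was the 1 member called (2.03 ± 0.317), and Fas rose by 0.42 ± 0.0843. Gadd45a and Sesn1 fell by 0.35 and 0.42 on the log2 scale, and Mdm2 was at 0.08. Among 8 genes that handle bleomycin or the ends it leaves in DNA, 5 rose and none fell. Blmh was at 22.8, 21.5, 24.6, 23.0 and 21.5 FPKM in bleomycin females and 17.2, 17.0, 17.0, 16.4 and 15.7 FPKM in sham females, a small rise without overlap (0.42 ± 0.0595, adjusted p = 2.8e-04). The DNA repair genes Fen1, Apex1 and Tdp1 rose by 1.72 ± 0.116, 0.64 ± 0.0919 and 0.59 ± 0.151.

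Metabolic genes of biosynthesis rose with these. In the serine, glycine and one-carbon list 9 of 16 rose, 6 were called and none fell (median 0.56). Aldh1l2, a mitochondrial folate enzyme, was barely detected in sham lungs, with 2.37, 1.58, 1.88, 1.12 and 1.52 FPKM in bleomycin females and 0.0569, 0.0655, 0.0535, 0.0650 and 0.0353 FPKM in sham females (4.89 ± 0.267). The amino acid transporter gene Slc7a5 and the proline synthesis genes Aldh18a1 and Pycr1 rose by 1.69 ± 0.118, 1.10 ± 0.101 and 2.41 ± 0.228. In the lipid synthesis list 12 of 27 rose and 3 fell (median 0.31). All 12 risers were enzymes of the cholesterol pathway, led by Dhcr7 (1.19 ± 0.137) and Hmgcs1 (0.99 ± 0.131), while the cholesterol exporters Abcg1 and Abca1 and fatty acid synthase (Fasn) had log2 fold changes of −1.05 ± 0.157, −0.52 ± 0.183 and −0.59 ± 0.160. The adjusted p of Abca1 was 0.053 to 0.102 without any 1 of bleomycin animals 2, 3, 4 and 5 and sham animals 1, 2, 4 and 5. Ribosome biogenesis genes rose in 9 of 19 cases, by at most 0.74 (Nop58), and fell in 2 (0 to 1 without any 1 of bleomycin animals 1, 2, 4 and 5 and sham animals 1 to 5). Nuclear genes of the respiratory chain rose in 3 and fell in 1 of 30 (rises 6 without bleomycin animal 5; falls 0 to 2 without any 1 of bleomycin animals 2 and 3 and sham animals 1, 4 and 5). Cytosolic ribosomal protein genes rose in 2 and fell in 1 of 23 (rises 1 without any 1 of bleomycin animals 1, 2 and 3 and sham animals 1, 2, 3 and 4).

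**Figure D3:**
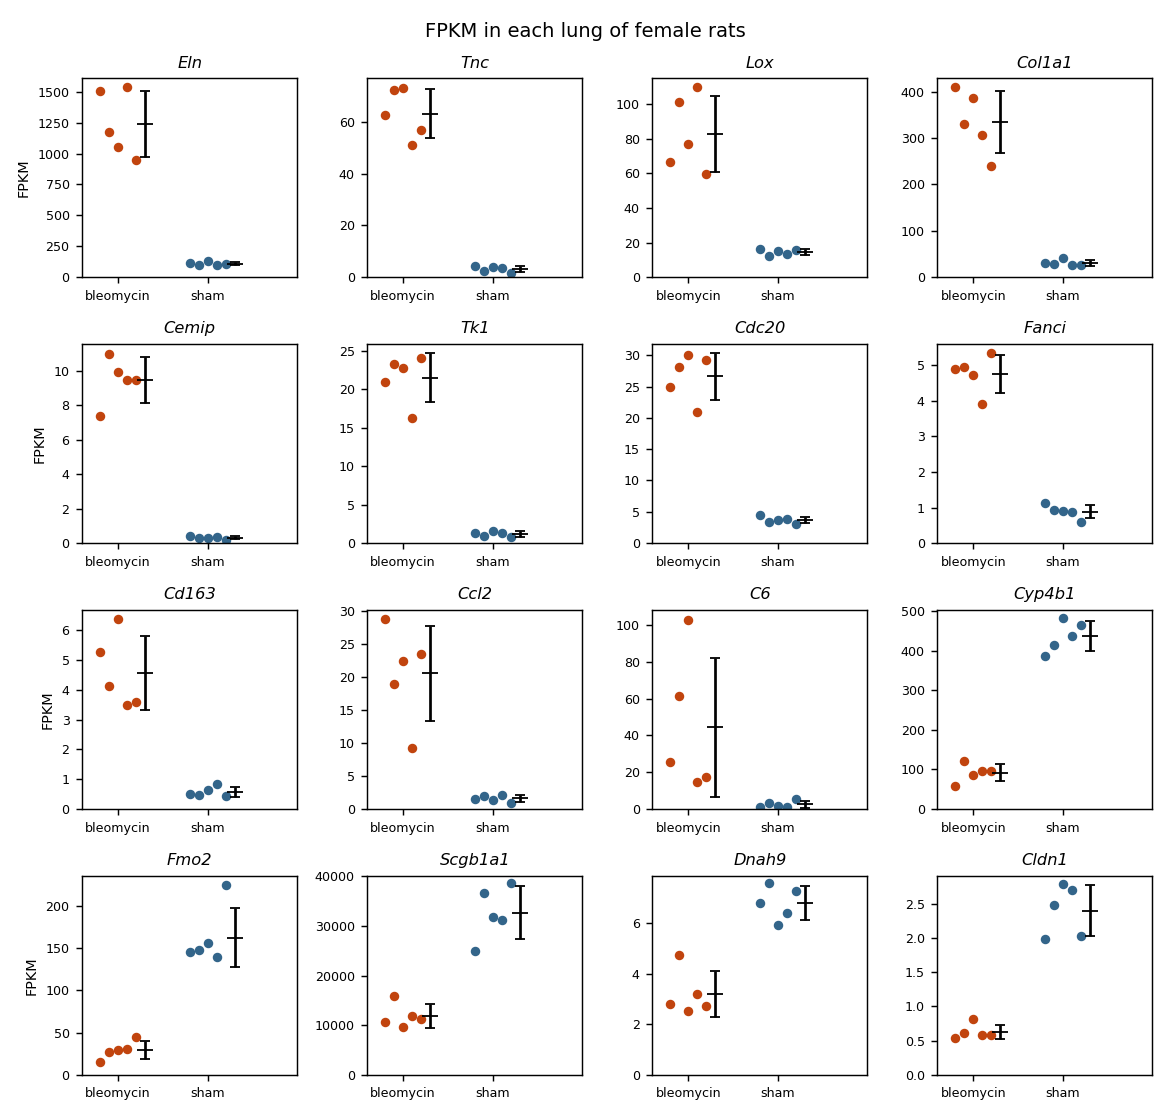
Each point is 1 lung, with bleomycin left of sham in each panel; the vertical axis is FPKM and starts at 0, and the bar beside each group is the mean ± SD of its 5 animals. In all 16 genes shown the groups do not overlap, with bleomycin above sham from Eln to C6 and below sham from Cyp4b1 to Cldn1.

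Enzymes that process foreign chemicals and aldehydes fell together. The lung carries its own set of cytochromes P450, flavin monooxygenases and aldehyde dehydrogenases, many of them concentrated in the club cells of the airways. None of 22 tested members rose, 19 fell and 15 were called lower, and in 17 the groups did not overlap (median −1.58). Over all tested genes 1.86% were called lower and 9.15% lay wholly below the sham libraries. Cyp4b1, an abundant lung P450, had 58.8, 120, 86.7, 95.7 and 97.0 FPKM in bleomycin females, against 386, 414, 481, 438 and 465 FPKM in sham females (−2.29 ± 0.161, adjusted p = 1.6e-06; ENSRNOG00000055078, chromosome 5, 129139038 to 129156348). Fmo2, the main lung flavin monooxygenase, had 14.9, 27.3, 28.9, 30.7 and 44.2 FPKM in bleomycin females and 145, 148, 156, 139 and 225 FPKM in sham females (−2.52 ± 0.248). Bleomycin animal 1 was the lowest for both genes. Aldh3a1, which clears lipid aldehydes, fell by 3.53 on the log2 scale, and Cyp2e1, a P450 of ethanol and small solvents, had 0.201, 0.180, 0.304, 0.690 and 2.13 FPKM in bleomycin females and 8.62, 8.44, 8.22, 8.05 and 11.9 FPKM in sham females. Bleomycin animal 5 stood well above the other 4 bleomycin animals, and still below all sham animals. Cyp2f4, of a P450 family known from club cells, fell by 2.19 on the log2 scale. Cyp2b1 and Cyp2b2 (−1.71 and −2.61) are near-identical copies between which reads can be split, and their separate values are uncertain. The exceptions were Cyp1b1, Cyp1a1 and Adh7, at 0.66, 0.25 and −0.43, past no threshold.

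Of the markers of club and other secretory cells some were lower and most passed no threshold. Scgb1a1, the club cell secretory protein and the most abundant of these transcripts, stood at 10694, 15911, 9627, 11755 and 11166 FPKM in bleomycin females, against 24854, 36560, 31756, 31284 and 38604 FPKM in sham females (−1.50 ± 0.168, adjusted p = 4.7e-05; ENSRNOG00000020196, chromosome 1, 205977060 to 205980610). The summed FPKM of the club, goblet and secretory list ran from 11844 to 17989 in bleomycin females and from 27324 to 42569 in sham females, nearly all of it Scgb1a1; the part of club cells in the fall of the enzymes was not tested. Of 15 tested members of that list 6 fell and 1 rose (rises 2 without bleomycin animal 5), while the median log2 fold change was 0.07. Scgb3a2, another secretoglobin of club cells, was at 485 ± 66.5 FPKM in bleomycin females and 449 ± 113 FPKM in sham females and passed no threshold (0.07). Scgb3a1 had only 96.2, 224, 323, 21.7 and 32.1 FPKM in bleomycin females, uneven among animals, against 721, 474, 420, 502 and 790 FPKM in sham females (−2.09 ± 0.688, adjusted p = 0.04). The adjusted p of Scgb3a1 was 0.053 to 0.091 without any 1 of bleomycin animals 1 and 5 and sham animals 1 to 5. The exception upward was Bpifb1, an antimicrobial protein of airway secretions (1.93 ± 0.333).

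Structural genes of the motile cilium fell in small steps, while 2 regulators of making new cilia rose. In the ciliated cell list 15 of 23 members fell and 2 rose, with a median of −0.63 (falls 9 without bleomycin animal 3). The dynein heavy chain gene Dnah9 had 2.79, 4.75, 2.51, 3.18 and 2.73 FPKM in bleomycin females and 6.78, 7.59, 5.91, 6.38 and 7.27 FPKM in sham females (−1.12 ± 0.164), and Tppp3, a microtubule protein of ciliated cells, fell by 1.09 on the log2 scale. The 2 risers were Ccno and Mcidas, which drive the multiplication of centrioles in cells that are becoming ciliated. Ccno was at 7.53, 10.0, 5.53, 5.14 and 10.3 FPKM in bleomycin females and 1.23, 1.47, 1.08, 1.31 and 1.40 FPKM in sham females, without overlap (2.53 ± 0.198, adjusted p = 3.3e-06). Mcidas was at 1.56, 2.32, 0.770, 1.53 and 3.41 FPKM in bleomycin females and 0.467, 0.595, 1.01, 0.303 and 0.561 FPKM in sham females, with bleomycin animal 3 below sham animal 3 (1.65 ± 0.402, adjusted p = 0.0082).

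Alveolar epithelial genes changed modestly. In the whole-lung values of a list for alveolar type 1 cells, the thin cells of gas exchange, 7 of 15 members fell and 2 rose (median −0.22). None reached a log2 fold change of −1, and the cell types that made these transcripts were not tested. Cav1, the main caveolin, was at 188, 214, 224, 312 and 305 FPKM in bleomycin females and 523, 358, 475, 461 and 436 FPKM in sham females (−0.89 ± 0.146), and Hopx fell by 0.59 on the log2 scale. The risers were Igfbp2 and Col4a3 (Col4a3 had an adjusted p of 0.076 to 0.09 without any 1 of bleomycin animals 2 and 4 and sham animals 2, 3 and 4). In the list for alveolar type 2 cells, which make surfactant, 7 of 17 members fell and 2 rose (median −0.18). The falls were 4 without any 1 of bleomycin animals 2 and 3 and sham animals 4 and 5. Sftpc had 6716, 5538, 5161, 7345 and 4429 FPKM in bleomycin females and 7700, 7559, 8124, 9547 and 9634 FPKM in sham females (−0.57 ± 0.164), with the groups just apart. Etv5, a factor that maintains type 2 cells, fell by 0.68 on the log2 scale, while Sftpa1 was at −0.04, past no threshold. Ctsh and Egfl6 rose. Genes of the transitional state between the 2 cell types rose in 5 of 16 members, and none fell. Krt7 had 241, 305, 352, 392 and 251 FPKM in bleomycin females and 161, 133, 171, 178 and 160 FPKM in sham females (0.91 ± 0.146), and Sfn rose by 1.41 ± 0.328, but the keratin gene Krt8 was at 0.20 (adjusted p = 0.221).

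Genes that seal the epithelium fell. Of 16 tested tight junction genes 10 fell and none rose (median −0.51). In 9 of them every bleomycin library lay below every sham library, against 9.15% of all tested genes. Cldn1, a claudin found in airway epithelium, had the largest fall, at 0.536, 0.609, 0.812, 0.582 and 0.585 FPKM in bleomycin females and 1.98, 2.48, 2.79, 2.70 and 2.03 FPKM in sham females (−1.96 ± 0.170, adjusted p = 6.1e-06; ENSRNOG00000001926, chromosome 11, 74421569 to 74436724). Cgn, Cldn3 and Cldn23 fell, at −0.73, −0.91 and −0.97. Cldn18, the main claudin of alveolar cells (342 ± 47.4 FPKM in bleomycin females and 323 ± 36.0 FPKM in sham females), was at 0.06 and passed no threshold. Ion transport genes stood near the shares over all tested genes (18.9% higher and 16.2% lower), with 4 of 21 higher (2 to 7 without any 1 of bleomycin animals 1 and 5 and sham animals 1, 3 and 5) and 5 lower. Of the sodium channel subunits Scnn1a fell (−0.67 ± 0.178) while Scnn1g rose (0.77 ± 0.0757).

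Endothelial genes were mixed, with more rises than falls. Of 28 members 11 rose and 3 fell (median 0.13; the falls were 5 without bleomycin animal 5). Fibin, Aplnr and Nos3 rose by 1.28 ± 0.130, 0.89 ± 0.0910 and 0.98 ± 0.118. Emcn, a sialomucin of capillary and venous endothelium, had 72.5, 76.9, 88.2, 97.1 and 108 FPKM in bleomycin females and 42.2, 38.3, 49.6, 48.9 and 35.8 FPKM in sham females (1.01 ± 0.119). Gpihbp1, which anchors lipoprotein lipase in capillaries, went the other way, with 1.73, 2.50, 2.60, 4.06 and 3.76 FPKM in bleomycin females and 12.5, 6.49, 7.71, 9.03 and 4.34 FPKM in sham females (−1.47 ± 0.277). The other falls were Tek and Apln, at −0.72 ± 0.141 and −0.76 ± 0.188. Cdh5, a pan-endothelial gene, was at 0.06, past no threshold. Among 24 growth factor and Notch genes of vessels 9 rose and 3 fell (falls 1 to 6 without any 1 of bleomycin animals 1 and 5 and sham animal 5). The lymphatic ligands Vegfc and Vegfd rose by 1.14 ± 0.118 and 1.95 ± 0.232, with Vegfd at 6.89, 11.7, 12.7, 9.54 and 18.3 FPKM in bleomycin females and 3.42, 2.64, 2.73, 2.27 and 3.79 FPKM in sham females. Of 6 lymphatic genes Flt4, Mmrn1 and Ccl21 rose by 0.92 ± 0.0884, 1.14 ± 0.157 and 0.96 ± 0.217, whereas Vegfa (0.26) and Lyve1 (−0.11) passed no threshold. The deposited annotation types the Lyve1 entry as a pseudogene and the Apln entry as a long non-coding RNA. The Notch ligand gene Dll4 fell by 0.83 on the log2 scale.

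Among leukocyte genes, some made by macrophages and several monocyte-attracting chemokines rose, and most of those of lymphocytes fell or passed no threshold. In the monocyte and macrophage list 11 of 29 members rose and 4 fell (median 0.36). Cd163, a hemoglobin scavenger receptor of tissue macrophages, was at 5.28, 4.13, 6.38, 3.49 and 3.58 FPKM in bleomycin females and 0.509, 0.460, 0.635, 0.833 and 0.434 FPKM in sham females (2.96 ± 0.240). The complement genes C1qb, C1qc and C1qa, made by resident macrophages, rose by 2.24 ± 0.215, 2.02 ± 0.216 and 2.13 ± 0.256. Stab1, a scavenger receptor of macrophages and some endothelium and outside the list, was among the 12 smallest p-values (2.34 ± 0.0966). Of the general macrophage genes, Cd68, Csf1r and Mrc1 were at 0.31, −0.30 and −0.31, past no threshold. Pparg, the factor of alveolar macrophages that is also made in other lung cells, had 4.36, 4.46, 5.35, 4.42 and 3.96 FPKM in bleomycin females and 7.95, 11.7, 9.03, 10.3 and 9.58 FPKM in sham females (−1.13 ± 0.129). The list was uneven among animals. The median of its members relative to the sham mean was 1.22 in bleomycin animal 1 and −0.15, 0.46, 0.02 and −0.04 in animals 2 to 5. In sham animals it ran from −0.10 to 0.12, so bleomycin animals 1 and 3 alone lay above the sham range. With any 1 library left out, 8 to 13 members rose and 3 to 4 fell.

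Of 19 tested CC chemokines and receptors 8 rose and 4 fell (median 0.58). The median of these members relative to the sham mean was 0.99, −0.23, 0.68, 0.02 and −0.03 in bleomycin animals 1 to 5. It ran from −0.41 to 0.33 in sham animals, so only bleomycin animals 1 and 3 lay above the sham range. Ccl2, which draws monocytes, was at 28.8, 18.9, 22.4, 9.26 and 23.5 FPKM in bleomycin females and 1.47, 1.98, 1.42, 2.18 and 0.962 FPKM in sham females (3.65 ± 0.315, adjusted p = 6.7e-06). Ccl7, its neighbour in sequence and function, rose by 3.53 ± 0.690. Ccl20, an epithelial attractant for lymphocytes and dendritic cells, fell to 2.05, 2.83, 3.86, 0.515 and 0.612 FPKM in bleomycin females, against 8.94, 17.3, 10.6, 7.92 and 12.2 FPKM in sham females (−2.55 ± 0.516), and its receptor gene Ccr6 fell by 0.95 on the log2 scale. Neutrophil and CXC chemokine genes rose in 2 of 23 cases and fell in 4, against 18.9% and 16.2% of all tested genes. Cxcl12 rose (0.75 ± 0.132) and Cxcr1 fell (−1.09 ± 0.199), while the calprotectin genes S100a8 and S100a9 were at −0.77 and −0.93 and passed no threshold.

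In the list of interleukins 1 and 6, TNF and alarmins 12 of 26 members rose and 2 fell (median 0.45; the falls were 4 without bleomycin animal 5). Osmr, the oncostatin M receptor, had 13.7 ± 2.65 FPKM in bleomycin females and 2.88 ± 0.571 FPKM in sham females (2.23 ± 0.162). The cytokine gene Lif rose by 2.04 ± 0.329, and the epithelial alarmin Tslp by 2.36 ± 0.315. Tnf and Il1b had log2 fold changes of 0.50 and −0.08 and passed no threshold. No member of the interferon-stimulated list rose, 2 of 22 fell (Bst2, −0.57 ± 0.0925, and Xaf1, −0.45 ± 0.152), and the median was −0.37. Over all tested genes 18.9% rose and 16.2% fell. The count of falls was 1 to 4 without any 1 of bleomycin animals 1, 2, 3 and 4 and sham animals 1, 3 and 5, and the adjusted p of Xaf1 0.051 to 0.095 without any 1 of bleomycin animals 1, 2, 3 and 4 and sham animals 1, 3, 4 and 5. Of 11 genes of MHC class II presentation none passed the threshold by edgeR, while 2 were higher at an unadjusted p under 0.05 and 2 by DESeq2 (median 0.16).

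T and NK cell genes fell in 10 of 25 cases and rose in 1 (median −0.52), though none by a log2 fold change of 1. The falls were 5 to 6 without any 1 of sham animals 3 and 4. Cd3d, a chain of the T cell receptor complex, had 0.819, 1.05, 1.52, 1.30 and 0.791 FPKM in bleomycin females and 2.45, 2.30, 2.91, 1.89 and 1.25 FPKM in sham females (−0.99 ± 0.262, adjusted p = 0.013), and sham animal 5 overlapped the bleomycin group. Gzmb fell by 0.65 on the log2 scale, and the riser was the interleukin 2 receptor gene Il2ra, whose adjusted p was 0.062 to 0.099 without any 1 of bleomycin animals 1, 2, 3 and 4 and sham animals 1 to 5. B cell genes fell in 5 of 20 cases (2 to 8 without any 1 of bleomycin animals 2 and 4 and sham animals 1 to 5), among them Ms4a1 (−0.98 ± 0.264) and Cd79a (−0.77 ± 0.250). The adjusted p of Cd79a was 0.06 to 0.08 without any 1 of bleomycin animals 1, 2, 4 and 5 and sham animals 1, 2, 3 and 4. The 1 rise in that list (2 without bleomycin animal 5) was Fcrl2, an Fc receptor-like gene, and it was the largest called rise of all (6.19 ± 0.736, adjusted p = 1.1e-04; ENSRNOG00000016164, chromosome 2, 172694308 to 172707051). It had 10.5, 8.68, 3.34, 5.36 and 2.28 FPKM in bleomycin females and 0.169, 0.0968, 0.114, 0.0254 and 0 FPKM in sham females. The other members of the list that passed the threshold fell, and the cell type that made Fcrl2 was not tested.

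Complement and clotting genes rose in 17 of 30 cases and fell in 2 (median 0.70; the falls were 1 without any 1 of bleomycin animals 3 and 4 and sham animals 2, 4 and 5). C7, a component of the membrane attack complex whose entry the deposited annotation types as a pseudogene, rose (1.59 ± 0.166). It had 155, 205, 250, 202 and 315 FPKM in bleomycin females and 85.0, 77.2, 73.9, 78.2 and 52.6 FPKM in sham females. C6, which joins the same complex, rose further but unevenly, at 25.4, 61.6, 103, 14.7 and 17.4 FPKM in bleomycin females and 1.07, 3.43, 1.87, 1.10 and 5.22 FPKM in sham females (4.09 ± 0.737, adjusted p = 0.0022). F2r, the thrombin receptor, and Plat, the tissue plasminogen activator, rose by 0.92 ± 0.0855 and 0.96 ± 0.116. C3 and C5, made largely in liver, were at −0.65 and −1.49 and passed no threshold. C5 had 6.69, 1.85, 4.33, 5.67 and 0.163 FPKM in bleomycin females and 11.7, 10.1, 9.93, 10.5 and 10.1 FPKM in sham females. Its groups did not overlap, though its edgeR adjusted p was 0.116.

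Nuclear receptor genes fell in 8 of 16 tested cases and rose in 3 (median −0.21). Nr3c2, the mineralocorticoid receptor, had 2.27, 2.48, 2.18, 2.56 and 2.09 FPKM in bleomycin females and 5.11, 5.26, 5.73, 4.47 and 4.20 FPKM in sham females (−1.12 ± 0.0994), and Rarb, a retinoic acid receptor, fell by 0.49 on the log2 scale. Gper1, a membrane receptor that responds to estrogen, rose, at 3.44 ± 0.642 FPKM in bleomycin females and 1.43 ± 0.241 FPKM in sham females (1.22 ± 0.172). The nuclear estrogen and progesterone receptor genes Esr1, Esr2 and Pgr did not reach the minimum FPKM, so no test was made of them. In the circadian list 4 of 18 rose and 5 fell, against 18.9% and 16.2% of all tested genes. Bhlhe40 rose (1.61 ± 0.221), while the activators Bmal1 and Npas2 fell by 1.08 and 1.04 on the log2 scale, with Bmal1 at 7.96, 7.87, 5.67, 9.00 and 3.56 FPKM in bleomycin females and 16.2, 14.7, 15.3, 12.2 and 13.1 FPKM in sham females. The hour of collection is not in the labels, so its part in these clock genes was not tested.

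Of 23 antioxidant and metallothionein genes 8 fell and 4 rose. Gsta1 and Prdx6 fell by 0.99 and 0.76 on the log2 scale, while the metallothionein gene Mt2A and heme oxygenase (Hmox1) rose by 2.71 ± 0.462 and 1.24 ± 0.283. Chaperone and stress genes of the endoplasmic reticulum rose in 9 of 26 cases and fell in 5 (3 without any 1 of bleomycin animals 1, 4 and 5 and sham animals 2, 4 and 5), with Pdia6 and Pdia4, which form disulfide bonds in secreted proteins, at 0.66 ± 0.0985 and 0.62 ± 0.112. Hypoxia and glycolysis genes rose in 3 and fell in 3 of 20, against 18.9% and 16.2% of all tested genes (rises 7 without bleomycin animal 5). In the gap junction list 5 of 12 rose and 2 fell (1 without any 1 of bleomycin animals 3 and 4 and sham animals 2, 4 and 5); Gja3, a connexin known from the eye lens, had 4.02, 3.29, 3.25, 5.13 and 1.72 FPKM in bleomycin females and 0.157, 0.0437, 0.0342, 0.0277 and 0.0274 FPKM in sham females, the second largest called rise (5.85 ± 0.514). Neural guidance genes rose in 8 of 22 cases and fell in 1 (3 without bleomycin animal 4), led by Slit2 (0.99 ± 0.115) and Sema3c (0.99 ± 0.123). The neuronal tubulin gene Tubb3 rose by 3.20 ± 0.419.

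Other large changes belonged to no list above. Aoc1, which breaks down histamine and polyamines, had 49.1, 160, 66.6, 81.9 and 64.1 FPKM in bleomycin females and 2.44, 4.67, 3.84, 3.16 and 2.67 FPKM in sham females (4.62 ± 0.354). The sulfotransferase gene Sult1c3 rose by 4.66 ± 0.579, with bleomycin animal 2 at 17.6 FPKM and the other 4 between 2.34 and 6.40. Galnt14, which starts O-linked sugar chains, fell, at 0.138 ± 0.0334 FPKM in bleomycin females and 1.55 ± 0.385 FPKM in sham females (−3.51 ± 0.260). Upk1a, a tetraspanin of urothelium, and Ccdc198 fell, at −2.43 and −2.27.

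By amount of RNA, after Eln, the largest gains in mean FPKM among genes with an adjusted p under 0.05 were those of Sparc, a matrix glycoprotein (1369 ± 132 FPKM in bleomycin females and 701 ± 55.7 FPKM in sham females), Retnla, a macrophage and epithelial resistin-like protein (743 ± 719 FPKM in bleomycin females and 166 ± 66.8 FPKM in sham females), Bgn, and Chia, an acidic chitinase (576 ± 138 FPKM in bleomycin females and 113 ± 62.9 FPKM in sham females). Ccn2, a matricellular TGF-beta target, Col3a1, Mfap4, Mgp and Actb completed the 10 (Actb had an adjusted p of 0.052 to 0.083 without any 1 of bleomycin animals 1 and 3 and sham animals 1, 2, 3 and 5). The largest losses were those of Scgb1a1, of Lyz2 (6724 ± 1062 FPKM in bleomycin females and 10621 ± 985 FPKM in sham females), of Sftpc, and of 7 mitochondrial transcripts. Of 13 protein genes of the mitochondrial genome 12 fell and none rose, by 0.29 to 0.58 on the log2 scale (median −0.44), with Mt-co1 at 10121, 9459, 8779, 10155 and 10980 FPKM in bleomycin females and 11231, 15404, 13309, 13208 and 13692 FPKM in sham females. The 20 most abundant genes took 11.3 ± 0.824% of counts in bleomycin females and 15.0 ± 1.28% in sham females (exact permutation p = 0.0079, two-sided, the smallest that 5 against 5 allow), and these shares move with Scgb1a1 and the mitochondrial genes.

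Bleomycin animals differed among themselves more for some genes than for others. Of 458 called genes with a mean of at least 5 FPKM in bleomycin females, the highest bleomycin animal was under 2 times the lowest in 324 and at least 4 times the lowest in 34. Animal 1 was the highest for 18 of these 34 and animal 5 the lowest for 18. The genes that follow were chosen after their values were seen. Itln1, a lectin of mucus-secreting cells, had 307, 37.6, 156, 10.6 and 36.1 FPKM in bleomycin females and 15.4, 3.17, 0.906, 1.28 and 3.67 FPKM in sham females, with animal 4 below sham animal 1. Retnla had 1957, 302, 845, 367 and 245 FPKM in bleomycin females and 118, 274, 123, 188 and 128 FPKM in sham females, with animals 1 and 3 far above the other 3 and animal 5 below sham animal 2; its log2 fold change of 2.15 ± 0.605 was 1.37 without bleomycin animal 1, and its adjusted p 0.05 without sham animal 5. Mmp12, a macrophage elastase, had 46.4, 3.92, 16.5, 5.45 and 6.33 FPKM in bleomycin females and 2.39, 3.04, 0.959, 1.86 and 1.20 FPKM in sham females.

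Immediate early genes, which are switched on within minutes of a stimulus, also varied among bleomycin animals. Atf3, a stress-induced transcription factor, had 60.4, 33.8, 27.3, 25.9 and 8.38 FPKM in bleomycin females and 10.7, 11.2, 9.34, 5.89 and 6.14 FPKM in sham females, so that animal 5 lay within the sham range. Fosb had 17.9, 11.7, 4.41, 10.1 and 0.758 FPKM in bleomycin females and 2.57, 1.60, 1.19, 0.964 and 0.660 FPKM in sham females. Over 11 tested genes of this kind, gathered after the values were seen, the median relative to the sham mean was 0.99, 1.12, 1.44, −0.05 and −0.32 in bleomycin animals 1 to 5, and between −0.37 and 0.39 in sham animals. Animals 1 to 3 lay above the sham range and animals 4 and 5 within it. The clock output gene Dbp was highest in animal 5, with 5.03, 6.30, 7.09, 3.35 and 22.2 FPKM in bleomycin females and 2.20, 2.44, 2.64, 3.44 and 2.84 FPKM in sham females, and its log2 fold change of 1.63 ± 0.438 was 0.98 without animal 5. By contrast the median of the mitosis list lay between 2.67 and 3.28 in all 5 bleomycin animals, that of the fibrillar collagens between 1.72 and 2.63, and that of the xenobiotic list between −1.76 and −1.44.

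**Figure D4:**
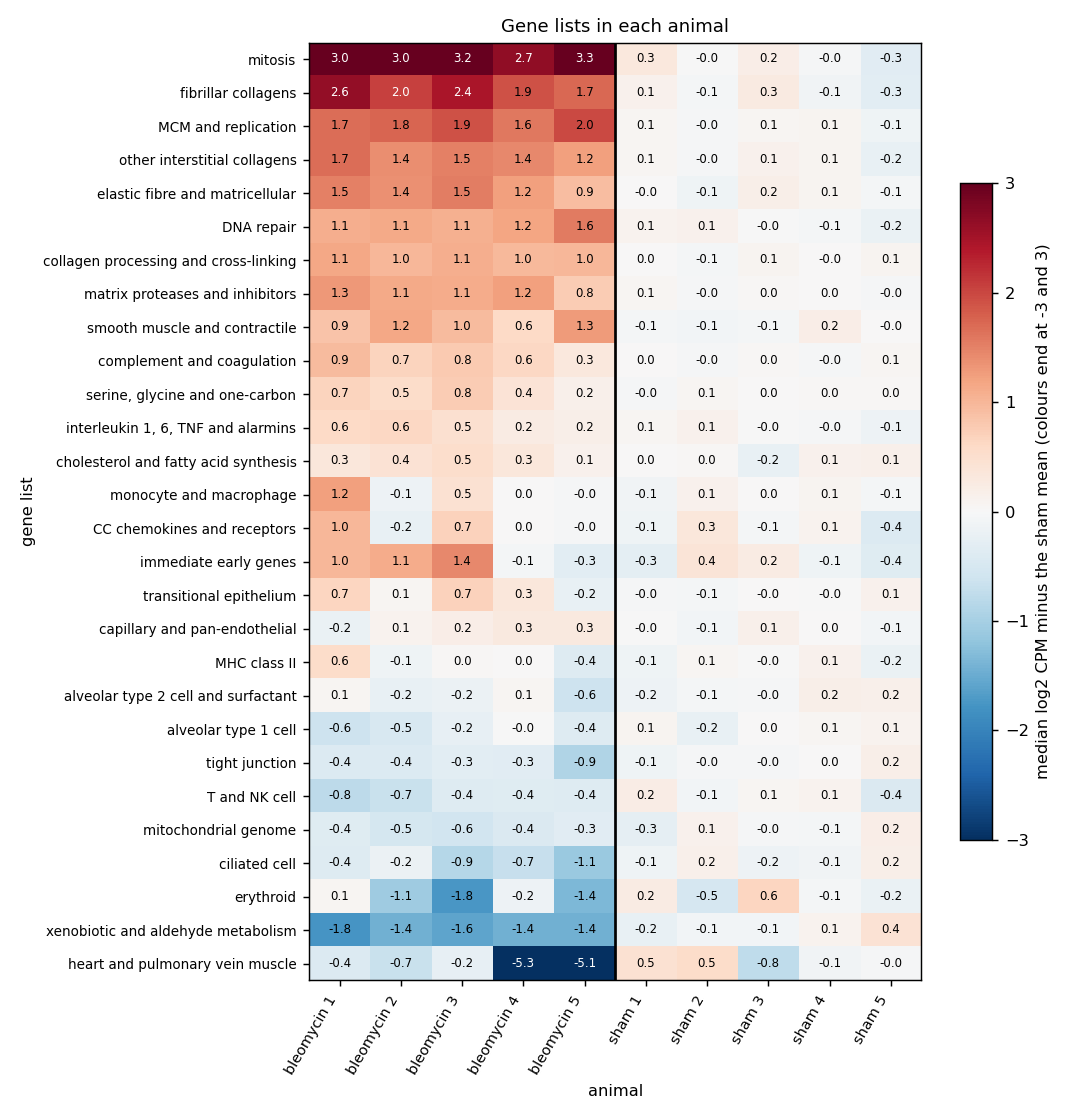
Rows are gene lists and columns the 5 bleomycin animals followed by the 5 sham animals; each cell is the median over the list's tested members of log2 CPM minus the sham mean. Mitosis, collagen and replication rows are high, and the xenobiotic row low, in all 5 bleomycin animals. The macrophage row is highest in bleomycin animal 1 (1.22), and heart muscle is at −5.34 and −5.11 in bleomycin animals 4 and 5.

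**Figure D5:**
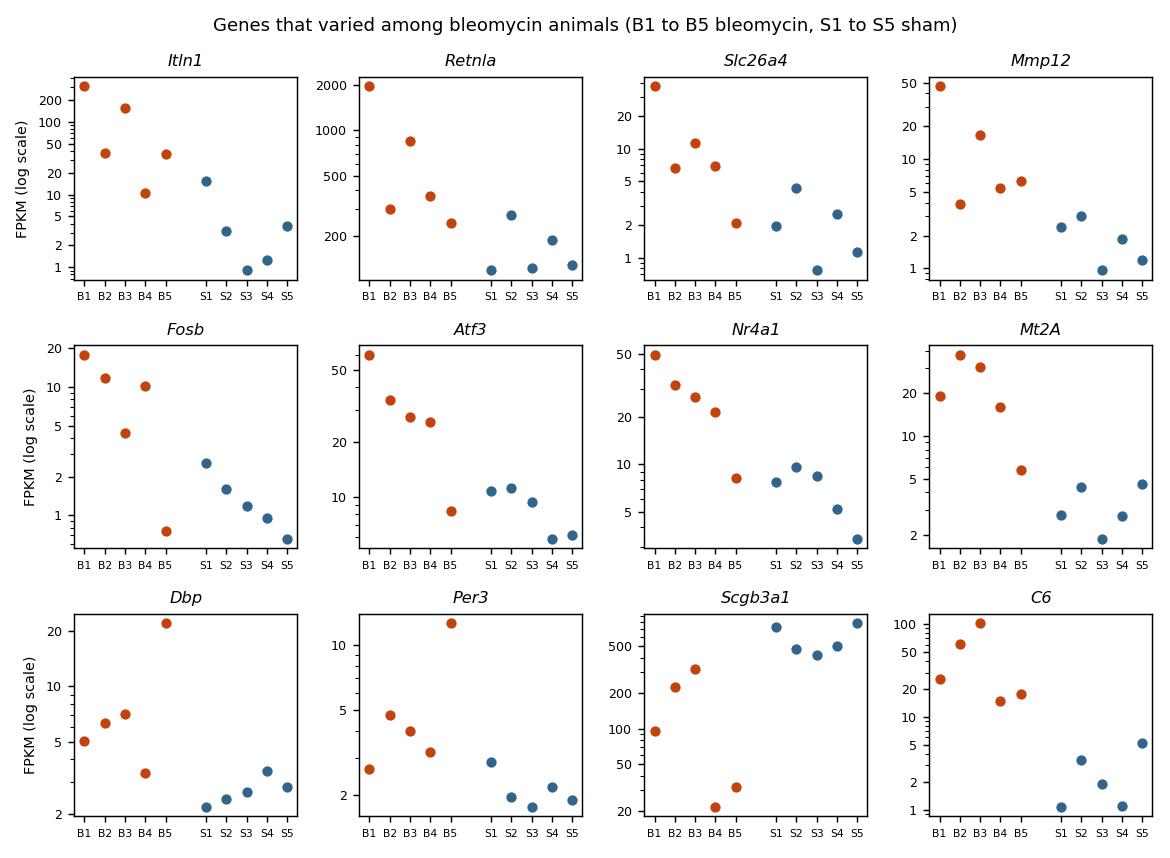
FPKM (log scale) of 12 genes, chosen after their values were seen, in bleomycin animals B1 to B5 and sham animals S1 to S5. Bleomycin animal 1 is highest for Itln1 (307), Retnla (1957) and Mmp12 (46.4), and animal 5 is lowest for Fosb (0.758) and Atf3 (8.38) and highest for Dbp (22.2).

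Markers of neighbouring tissues varied by library. The median of the heart and pulmonary vein muscle list lay between −0.66 and −0.25 in bleomycin animals 1 to 3, at −5.34 and −5.11 in bleomycin animals 4 and 5, and between −0.76 and 0.54 in sham animals. The atrial gene Myl7 had 9.79, 5.00, 8.80, 0.0462 and 0 FPKM in bleomycin females and 23.7, 25.1, 9.58, 16.3 and 16.4 FPKM in sham females. Mb (myoglobin) and Tnni3, which were called lower (−3.44 ± 1.08 and −1.46 ± 0.363), followed this pattern in part, with Mb at 1.06, 0.507, 0.726, 0 and 0 FPKM in bleomycin females and 6.06, 6.40, 2.72, 5.31 and 4.47 FPKM in sham females; the part of the amount of muscle in the sample was not tested. The adjusted p of Mb was 0.053 to 0.064 without any 1 of bleomycin animals 2 and 3 and sham animals 1, 2, 4 and 5, and that of Tnni3 0.06 without bleomycin animals 1 and 5 together. Acta1, a skeletal muscle actin, rose in contrast (3.44 ± 0.457). The liver gene Alb ranged from 0.622 to 25.6 FPKM in bleomycin females and from 0.364 to 61.4 FPKM in sham females, and no gene of 6 in the liver list, of 7 in the mesothelium list or of 6 in the erythroid list passed the threshold by edgeR or by DESeq2, and 0 had an unadjusted p under 0.05. Of 7 fat cell genes Cidec alone fell (−1.82 ± 0.307; falls 2 without any 1 of bleomycin animal 4 and sham animal 4).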

How the data were processed

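Lung messenger RNA was measured in 5 bleomycin and 5 sham female rats, each a separate animal per the labels. Per the labels' protocols, total RNA was extracted with TRIzol, poly-A RNA was captured and sequenced as paired reads from stranded libraries, Cutadapt 1.10 trimmed the reads, FastQC 0.10.1 gave their quality, HISAT2 2.0 aligned them to rat, and StringTie 1.3.4 quantified genes. The authors deposited 2 units per gene and animal, counts and FPKM, per the file headers. The FPKM values came from StringTie and the counts were passed to DESeq2 and edgeR, per the labels. The step that made whole counts, and its use of strand, are not given in the sources used here. Multiples of 4 are in excess among the deposited counts: 3433 values are 4, against 1717 that are 3 and 1182 that are 5. The genome release and the assembly named in the labels do not belong together, so coordinates are those of the table, with the build uncertain. The 20 columns of male animals were not used.

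Genes with an FPKM of at least 0.5 in at least 5 of the 10 libraries (15077) were tested on the deposited counts with edgeR 4.0.16 in R 4.3.3, by TMM scaling and the robust quasi-likelihood test with 1 mean per group. Adjusted p-values are two-sided Benjamini-Hochberg values over all 15077 genes, and fold changes carry a prior count of 0.125. The standard error of a log2 fold change is its size divided by the square root of the F value. Unless another tool is named, adjusted p-values in the text are edgeR's. The thresholds for a call are an adjusted p under 0.05 and a log2 change of 1 or more, up or down. The steps were tested on simulated data. Shares of counts per library were compared by exact permutation tests.

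The 64 gene lists, their members and the rule for naming genes were chosen with earlier results of these data known, and the lists are described by counts and medians without a set test. Genes were named by rule: the 12 largest called rises and falls with a mean of at least 1 FPKM and groups that do not overlap, the 12 smallest p-values, the 10 largest gains and losses in mean FPKM, up to 4 members of each list by p plus those needed to account for it, and Blmh, Kdm5d, Eif2s3y, Esr1, Esr2, Pgr and Alb. Some genes that the rule names are not reported here. Alternatives were other scalings, filters and tests (DESeq2 1.42.0, limma 3.58.1 on log2(FPKM + 0.1) and log2(FPKM + 1)), a replicate block, a mitochondrial covariate, and leaving out each library. Symbols shared by more than 1 gene (145) were not named. Promoter sequences and motifs were not used here.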

Additional observations from a re-analysis of the deposited data

Results flagged for a closer look

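Among the genes named above, 1 animal stood apart from the other 4 of its group in 43 of 526 pairs of gene and group (8.17%), where its gap to the nearest other animal made up more than 0.71 of the group's range (Dixon's criterion for 5 samples). For normally distributed values the criterion flags about 5% of such pairs by chance. Whether these FPKM values are so distributed was not tested, so 5% may not be the chance rate here. The genes are also not independent of each other. Each value below is in FPKM and is followed by that of the nearest animal of the same group.

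Bleomycin animal 1 was the highest for Cma1 (12.2 against 5.03), Col5a2 (78.4 against 71.4), Eif2s3y (0.0626 against 0), Spp1 (376 against 99.8) and Tgfbr1 (20.6 against 15.1). Bleomycin animal 2 was the highest for Aurkb (91.4 against 38.1), Cyp2f4 (112 against 72.0) and Sult1c3 (17.6 against 6.40). Bleomycin animal 3 was the highest for Cldn1 (0.812 against 0.609), Nos3 (11.8 against 8.95) and P4ha1 (22.9 against 19.9). Bleomycin animal 4 was the lowest for Lif (0.715 against 2.33) and Ube2c (15.6 against 22.1). Bleomycin animal 5 was the highest for Alb (25.6 against 6.42), Col27a1 (1.17 against 0.582), Cyp2e1 (2.13 against 0.690), Dbp (22.2 against 7.09) and Dll4 (23.0 against 12.1). It was likewise the highest for Lig4 (8.98 against 4.44). Bleomycin animal 5 was the lowest for Il2ra (0.473 against 1.09) and Plod3 (28.4 against 37.6). Animal 5 thus stood apart most often among the bleomycin lungs, 6 times high and 2 times low.

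Sham animal 1 was the highest for Alb (61.4 against 11.3), Aurkb (68.6 against 19.1), Gja3 (0.157 against 0.0437) and Itln1 (15.4 against 3.67). Sham animal 1 was the lowest for Igfbp2 (28.9 against 41.3) and Ptges2 (10.7 against 14.4). Sham animal 2 was the highest for Xrcc5 (50.9 against 42.7). Sham animal 2 was the lowest for Hopx (503 against 573). Sham animal 3 was the highest for Bst2 (416 against 349), Cma1 (4.08 against 2.11) and Col3a1 (174 against 116). Sham animal 3 was the lowest for Abca1 (4.81 against 7.76), Ccdc198 (1.79 against 2.16) and Timp4 (1.47 against 2.08). Sham animal 4 was the highest for Actg2 (22.7 against 16.0). Sham animal 5 was the highest for Aldh3a1 (5.86 against 3.89), Cyp2b2 (233 against 68.5), Cyp2e1 (11.9 against 8.62) and Fmo2 (225 against 156). Sham animal 5 was the lowest for Apln (24.9 against 35.3), Col11a2 (0.373 against 0.625) and Il2ra (0.381 against 0.607).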

How the results depend on the processing

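The 215 named genes with an adjusted p under 0.05 (of 259 tested) kept their direction under every alternative in which they were tested. The numbers of called genes stayed within 1.5 times of 814 higher and 280 lower except in 3 settings. Log2(FPKM + 1) with limma gave 502 higher and 122 lower, and an FPKM minimum of 2, by which fewer genes are tested, 183 lower. The mitochondrial percent as a covariate gave 478 higher, 103 lower and 881 with an adjusted p under 0.05; 110 of the 215 named genes remained under it. The cause of these moves was not tested. DESeq2 called 816 higher and 299 lower, 1078 of them shared with edgeR's 1094. Leaving out 1 library gave 774 to 842 higher, at most 312 lower (within 1.5 times of 280 each time) and 4295 to 5680 with an adjusted p under 0.05, and 3 to 8 of the 215 named genes left the threshold. Over the same removals the mitochondrial difference ran from −1.88 to −1.43 points and the ratio of spreads (bleomycin over sham) from 1.1 to 1.42. Without bleomycin animals 1 and 5 together, a setting chosen after seeing the data, 785 were called higher and 290 lower, 949 of them among the 1094, and Cd3d, Ms4a1 and Scnn1a had adjusted p-values of 0.061, 0.069 and 0.066. With the replicate number as a block 777 were called higher and 293 lower, with 4486 past an adjusted p of 0.05; Retnla and Scgb3a1 then had adjusted p-values of 0.102 and 0.061. Deviations of same-numbered animals correlated by −0.05 to 0.06, and 1 of the 10 libraries correlated best with its own number, so the numbers were not taken as pairs. The median of the CC chemokine list turned to −0.07 with an FPKM minimum of 2, which leaves fewer members. All other changes of sign were in genes past no threshold. With the mitochondrial covariate these were Aurkb (−0.69), Cdh5 (−0.10), Cldn18 (−0.26), Cyp1b1 (−0.06), Kif4a (0.24), Lig4 (0.19), Pdgfra (−0.13), Spp1 (−1.76) and Tgfbr1 (0.09). Without animals 1 and 5 Lyve1 was at 0.03 and Sftpa1 was at 0.00. When 1 library was left out, the log2 fold changes lay on both sides of 0 for Adh7 −0.77 to 0.05, Alb −2.71 to 0.49, Cd44 −0.12 to 0.00, Cd68 −0.09 to 0.47, Cdh5 −0.00 to 0.12, Cldn18 −0.02 to 0.14, Col11a2 −0.08 to 0.32, Col27a1 −0.38 to 0.09, Cyp1a1 −0.65 to 1.26, Il1b −0.31 to 0.08, Kif4a −0.14 to 0.03, Scgb3a2 −0.01 to 0.26 and Sftpa1 −0.16 to 0.10. In counts, 2 named genes left the threshold with limma-voom and 5 with no filter. Genes were also binned by the higher of their 2 group means. At 0.5 to 1 FPKM 4.43% were called higher, and at 1 to 5 FPKM 8.63%. The share was 3.89% at 5 to 20 FPKM, 3.73% at 20 to 100 FPKM and 7.25% from 100 FPKM up.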

Other observations

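Vasoactive and hormone genes of the lung moved one by one. Of 10 tested neuropeptide and hormone genes 3 rose by edgeR and none fell, while 2 were lower at an unadjusted p under 0.05 and 2 by DESeq2. Penk, the enkephalin precursor, had 2.48, 3.62, 4.76, 1.72 and 2.61 FPKM in bleomycin females and 0.408, 0.724, 0.337, 0.505 and 0.110 FPKM in sham females, so that every bleomycin lung lay above every sham lung (2.83 ± 0.431, edgeR adjusted p = 4.5e-04). Adm (adrenomedullin), a vasodilator peptide, rose by 1.10 ± 0.151. In the prostaglandin and leukotriene list 1 of 19 rose, the prostaglandin E2 receptor gene Ptger4 (0.68 ± 0.102), and 4 fell (2 without any 1 of bleomycin animal 2 and sham animals 3 and 5), among them Ptges2, a prostaglandin synthase (−0.57 ± 0.113). Of 12 tested mast cell, basophil and eosinophil genes 1 rose (0 to 2 without any 1 of bleomycin animals 1, 2 and 5 and sham animals 1, 2 and 5) and 1 fell (0 without any 1 of bleomycin animals 2 and 4 and sham animals 2, 3 and 4); the mast cell chymase gene Cma1 had 12.2, 3.40, 5.03, 4.35 and 4.25 FPKM in bleomycin females and 1.94, 1.77, 4.08, 2.11 and 1.96 FPKM in sham females (1.28 ± 0.379; edgeR adjusted p 0.05 to 0.052 without any 1 of sham animals 1, 2 and 5). In the platelet list 1 of 12 rose (P2ry12, the ADP receptor, 1.02 ± 0.218) and 1 fell (0 to 3 without any 1 of bleomycin animals 1 to 5 and sham animals 1, 2, 3 and 4). None of 4 tested thymus and lymph node genes passed the threshold by edgeR or DESeq2, with 1 higher at an unadjusted p under 0.05.

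Small nucleolar RNAs, most of which guide the modification of ribosomal RNA, were called higher in 19 of 136 tested cases (14.0%) and lower in 1, against 5.40% and 1.86% of all tested genes. They are short transcripts without poly-A tails that lie mostly inside introns of other genes, and the part of reads from their host genes was not tested. Long non-coding RNAs were called higher in 21 of 623 cases (3.37%) and lower in 14 (2.25%). Chromosome 13 had the highest share of called genes, 10.2% of 480 tested, against 7.26% over all.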
